A study of Mus musculus with 55 samples.

Results

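The acute-phase proteins of the liver are plasma proteins, and a few metal-handling proteins made beside them, whose output by hepatocytes changes when the body meets injury or inflammation. The group described here is a list of 33 genes, chosen by name with earlier results of these data known. All 33 were found among the 24478 gene symbols of the table, and where a symbol had several rows the one with the largest mean was taken. RNA was measured by sequencing in 55 libraries from 10 cell populations sorted from the liver of C57B/L6 mice. There were 27 libraries of normal liver and 28 of liver operated on by partial hepatectomy (PH), in which part of the organ is removed and the remainder grows back. Normal liver gave 4 libraries each of hepatocytes (HC), biliary epithelial cells (BEC) and a clonal subset of these (cBEC), 3 of liver sinusoidal endothelial cells (LSEC), and 2 each of ducts without progenitors (NPD), endothelial cells (EC), stellate cells (HSC), Kupffer cells (KC), Thy1 cells and blood cells. PH liver gave 5 libraries of LSEC and 4 of HC; HSC, EC and KC had 3 each, and the ducts (NPD, BEC, cBEC), blood and Thy1 cells 2 each. Both states are of the same strain, with no other treatment or allele in the labels, and the time after surgery, the age and any sham operation are not given in the sources used here.

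In the acute-phase response, interleukin-6 acts through its receptor and the factor STAT3, and interleukin-1 and tumour necrosis factor act through NF-kappaB and C/EBP factors, to raise transcription of a set of hepatocyte genes. The products are secreted into plasma, where they bind lipids, haemoglobin, haem, iron or bacterial surfaces, inhibit proteases, or form clots. Other abundant plasma proteins, called negative acute-phase proteins, classically fall in the same response.

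Values are FPKM, fragments scaled to transcript length and library size, so levels can be set side by side between genes on this scale. PH was compared with normal liver within each population with limma on log2(FPKM + 1), and a gene was called changed at a Benjamini-Hochberg adjusted p below 0.05 over all symbols tested in that population. The labels do not say that replicates came from separate animals, so p-values measure the spread between these libraries. FPKM in a sorted population cannot tell fewer cells of a type from less RNA per cell. The 12 hepatocyte markers were detected in every HC library, with a mean log2(FPKM + 1) of 9.74 to 9.95 in normal and 8.98 to 9.36 in PH liver. The HC libraries were not evenly spread: across genes, normal libraries 1 and 4 correlated at 0.991 and 2 and 3 at 0.991, while other normal pairs lay between 0.936 and 0.950, and PH libraries 3 and 4 correlated at 0.983. One library, PH cBEC 1 by its title, is tagged as normal in its treatment field and was kept under its title.

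In hepatocytes, 19 of the 32 members tested rose after PH, 1 fell and 12 did not pass the test. Over all 10029 symbols tested in HC, 1.78% were called higher and 4.41% lower. The median change of the tested members was 1.79 on the log2 scale, against -0.07 over all symbols. Among the 19, the ratio of group means was at least 10 for 9 members and between 2 and 10 for the other 10. The 4 libraries of each state did not overlap for 22 members, 21 higher and 1 lower, where 4.99% of all symbols were separated upward and 13.2% downward. By role, 3 of 4 serum amyloid A genes, 6 of 6 carrier genes, 3 of 3 metal-handling genes, 3 of 4 fibrinogen and fibrinogen-like genes, 3 of 6 tested protease inhibitor and hyaluronan-binding genes, and 1 of 4 recognition and leucine-rich protein genes rose. Of the 5 negative acute-phase genes, 1 fell. When the most alike HC libraries were averaged first (normal 1 with 4, normal 2 with 3, PH 3 with 4), 12 members rose and 0 fell by limma.

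**Figure D1:**
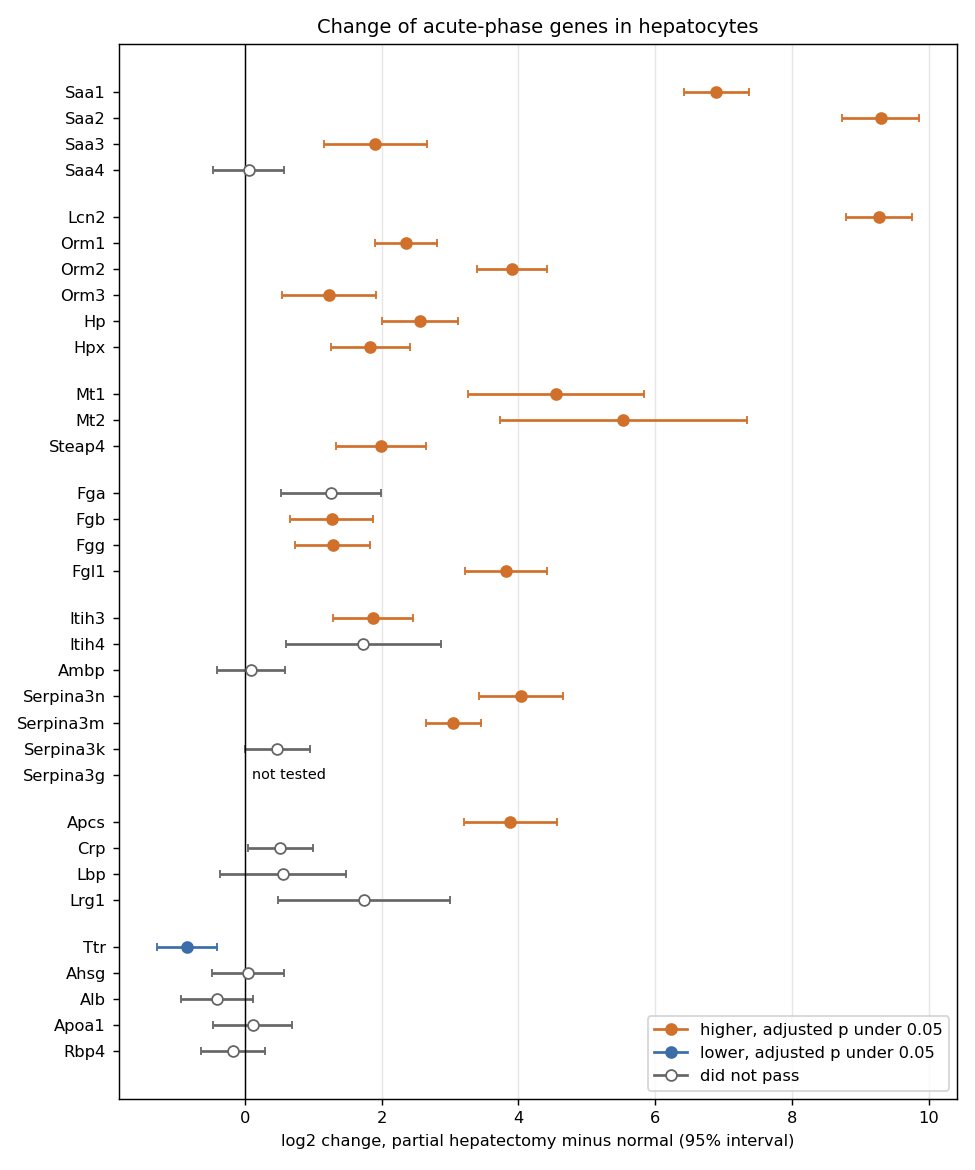
Log2 change after PH in hepatocytes for each tested member, with its 95% interval, ordered by role (4 normal and 4 PH libraries). Saa2, Lcn2 and Saa1 lie at 9.30, 9.27 and 6.89, while 4 of the 5 negative acute-phase genes have intervals that include 0.

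Serum amyloid A proteins are small apolipoproteins that join high-density lipoprotein in plasma. Their 4 genes lie side by side on chromosome 7 between 53967368 and 54009684 (mm9, as in the table). Saa2 stood at 29.6, 50.7, 45.1 and 29.0 FPKM in the 4 normal HC libraries and at 20079.5, 21968, 30373 and 25731 FPKM in the 4 PH libraries. No library of one state came near the other, and the log2 change was 9.30 with an SE of 0.25 (adjusted p = 2.98e-08). Saa1 stood at 128, 189, 159 and 153 FPKM in normal and at 15939, 17003, 22999 and 19289 FPKM in PH libraries. Its groups were also far apart, with a log2 change of 6.89 (SE 0.21, adjusted p = 6.31e-08). The order of these neighbours turned over: the Saa2 to Saa1 ratio of FPKM was 0.19 to 0.28 in the normal libraries and 1.26 to 1.33 in the PH libraries. Reads shared by Saa1 and Saa2, as by members of the Serpina3, Orm and Mt families, could have been assigned to either gene, since the handling of such reads is not recorded, so their separate levels are uncertain.

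Saa3, which in the mouse is also made outside the liver, stood at 11.6, 10.0, 7.8 and 10.1 FPKM in normal HC and at 27.9, 85.5, 33.9 and 30.1 FPKM after PH. All 4 PH libraries were higher, library 2 most of all, and the log2 change was 1.91 (SE 0.34, adjusted p = 0.0105; 0.188 with like libraries averaged and 0.41 with all populations in 1 fit). Saa4, the constitutive member of the family, stood at 159, 190, 220 and 150 FPKM in normal and at 139, 170, 222 and 227 FPKM in PH libraries. The groups overlapped, and the log2 change of 0.06 had a 95% interval of -0.46 to 0.58. In FPKM, Saa4 was the highest or second highest of the 4 genes in normal HC and lay far below Saa1 and Saa2 after PH.

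The promoter windows of Saa1, Saa2 and Saa4 are printed because these neighbouring genes differ so much in their change. Each window holds 250 bases before and 50 after the transcription start, from RefSeq on GRCm38.p6, where 26 of the 33 members had one. Saa1 is at chr7:46742931-46743230 on the minus strand, Saa2 at chr7:46751583-46751882 on the plus strand and Saa4 at chr7:46732554-46732853 on the minus strand. Capitals mark matches, on either strand, to the motifs searched: STAT (TTCNNNGAA), C/EBP (TTGCNNAA), the kappaB consensus, and the metal response core (TGCACNC or TGCGCNC).
Saa1: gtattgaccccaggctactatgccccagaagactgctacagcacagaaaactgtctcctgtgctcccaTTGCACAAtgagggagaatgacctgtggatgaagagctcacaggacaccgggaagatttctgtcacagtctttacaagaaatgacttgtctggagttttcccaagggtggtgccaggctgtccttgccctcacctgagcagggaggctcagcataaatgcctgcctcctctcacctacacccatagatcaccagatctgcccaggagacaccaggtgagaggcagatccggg
Saa2: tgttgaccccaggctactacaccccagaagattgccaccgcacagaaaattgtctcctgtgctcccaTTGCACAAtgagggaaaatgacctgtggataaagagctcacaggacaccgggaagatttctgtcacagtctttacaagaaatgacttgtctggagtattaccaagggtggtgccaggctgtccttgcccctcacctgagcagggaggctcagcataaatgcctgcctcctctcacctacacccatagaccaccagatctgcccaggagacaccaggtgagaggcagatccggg
Saa4: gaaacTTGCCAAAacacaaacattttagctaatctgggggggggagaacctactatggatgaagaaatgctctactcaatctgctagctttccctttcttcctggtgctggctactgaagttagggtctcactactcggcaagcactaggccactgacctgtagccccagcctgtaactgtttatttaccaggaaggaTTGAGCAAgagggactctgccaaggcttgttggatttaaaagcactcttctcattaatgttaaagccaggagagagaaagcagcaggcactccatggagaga
The Saa1 and Saa2 windows were identical at 287 of 301 aligned columns (95.3%), and Saa1 and Saa4 at 46.8%. The C/EBP letters stood 182 bases before the start in Saa1 and 183 before it in Saa2, and Saa4 had them 245 and 52 bases before its start. Over the members, C/EBP letters were found in 14 of 26 windows against 10.8% of the first windows of 27025 symbols, and STAT letters in 6 of 26 against 8.47%. The kappaB consensus was found in 2 of 26 against 4.35%, and the metal response core in 7 of 26 against 25.6%. Of the 15 members with a window that rose in HC, 10 held C/EBP letters and 3 STAT letters, and of the 10 that did not pass the test, 4 and 2; the other is Serpina3g, which was not tested in HC. Such matches describe the letters only.

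**Figure D2:**
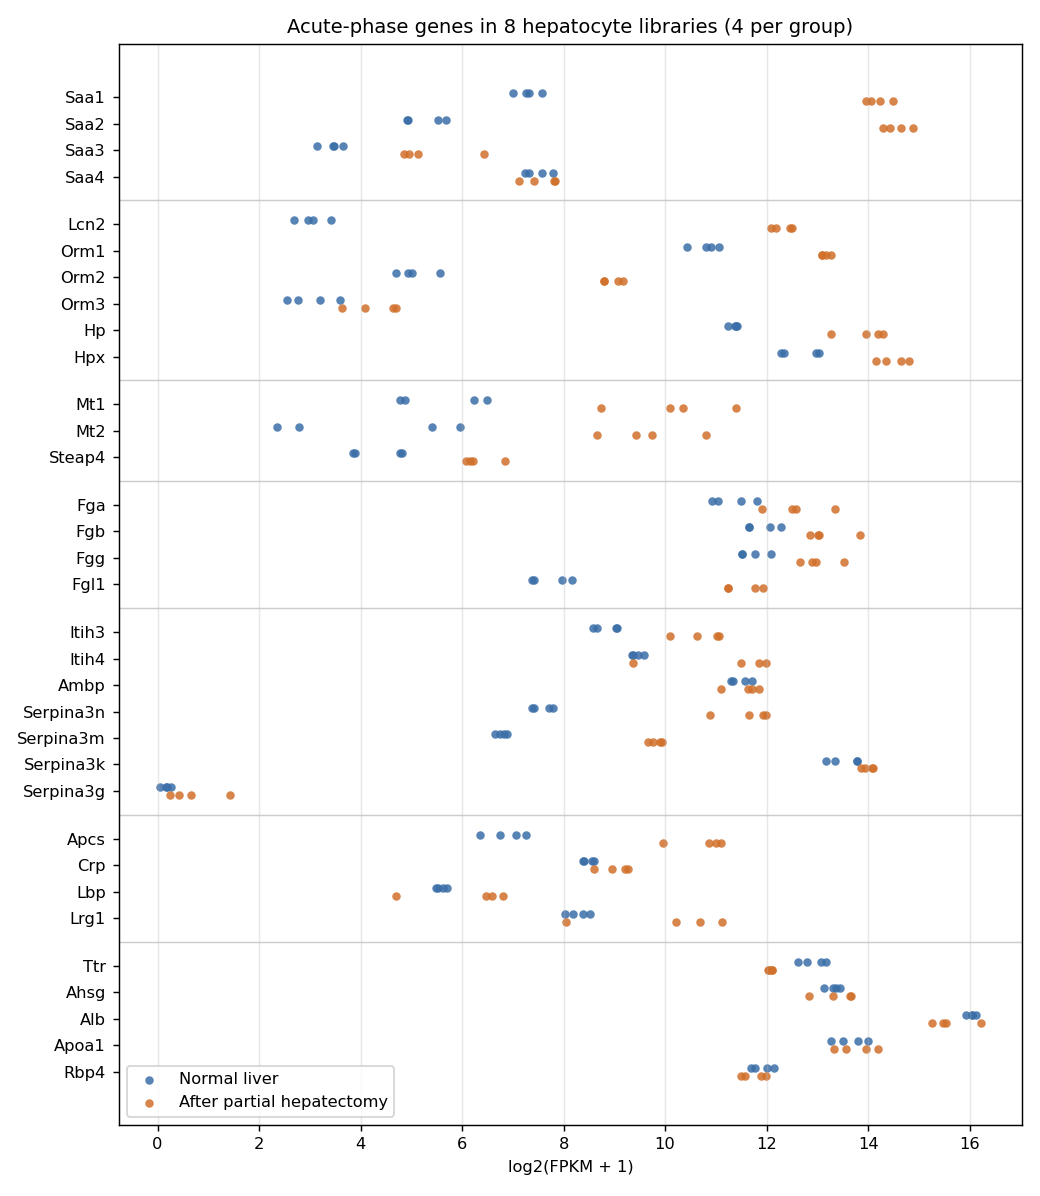
FPKM of the members in each hepatocyte library on a log axis, normal and PH libraries as points. Saa1, Saa2 and Lcn2 move from at most 189 FPKM to at least 4324 FPKM, whereas Alb, Ahsg, Apoa1 and Rbp4 overlap between states.

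The carrier genes rose in 6 of 6 cases. Lcn2, lipocalin 2, binds bacterial siderophores and so withholds iron; its gene is on chromosome 2, 32240157 to 32243259 (mm9, minus strand). It stood at 5.49, 7.40, 9.62 and 6.84 FPKM in normal HC and at 4324, 5773, 4635 and 5620 FPKM after PH. Every PH library was far above every normal one, and the log2 change was 9.27 (SE 0.22, adjusted p = 1.21e-08). The summed FPKM of 10 neutrophil markers, a cell type that also makes Lcn2, was 0.08 to 3.74 in normal and 0.17 to 1.14 in PH hepatocyte libraries, with 6 to 9 and 6 to 8 of the 10 genes at 0. The Lcn2 window, at chr2:32387690-32387989 on the minus strand of GRCm38.p6, is shown with its C/EBP letters 216 bases before the start in capitals.
Lcn2: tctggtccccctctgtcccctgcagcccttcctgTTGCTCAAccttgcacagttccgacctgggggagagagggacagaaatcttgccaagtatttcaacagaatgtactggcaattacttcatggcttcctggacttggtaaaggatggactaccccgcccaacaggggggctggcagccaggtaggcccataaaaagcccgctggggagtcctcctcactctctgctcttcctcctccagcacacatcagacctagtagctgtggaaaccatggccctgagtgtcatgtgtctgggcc
The orosomucoids, which bind lipids and drugs in plasma, started from very different levels. Orm1 stood at 2150, 1374, 1787 and 1922 FPKM in normal and at 8752, 8733, 9851 and 9188 FPKM in PH libraries. The groups were separate, and the log2 change was 2.35 (SE 0.20). Orm2 stood at 29.5, 31.2, 46.6 and 25.1 FPKM in normal and at 444, 443, 576 and 537 FPKM in PH libraries, a log2 change of 3.90 (SE 0.23). The Orm1 to Orm2 ratio was thus 38.4 to 76.5 in normal and 17.1 to 19.7 in PH HC, with no overlap. Orm3 was the lowest of the 3, at 4.87 to 11.2 FPKM in normal and 11.4 to 24.8 FPKM after PH, and its call (log2 change 1.23, adjusted p = 0.0451) was lost under 10 of 17 alternatives.

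Haptoglobin (Hp) binds free haemoglobin and hemopexin (Hpx) binds free haem. Hp stood at 2693, 2645, 2405 and 2731 FPKM in normal HC and at 9848, 15807, 18638 and 19997 FPKM after PH. Its PH libraries were all higher but more widely spread than the normal ones, with library 1 the lowest, and the log2 change was 2.57 (SE 0.25, adjusted p = 0.00048). Hpx stood at 8016, 5196, 4956 and 8431 FPKM in normal and at 18142, 21049, 25535 and 28817 FPKM in PH libraries. It was already abundant in normal HC and rose by 1.83 on the log2 scale (SE 0.26, adjusted p = 0.00349, or 0.159 with like libraries averaged). By mean FPKM, Hpx was the third and Hp the seventh symbol of PH HC, and Alb was the first, Saa2 the second and Saa1 the fourth.

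The metal-handling genes rose in 3 of 3 cases. Metallothioneins 1 and 2 are small cysteine-rich proteins that bind zinc and copper, and their genes are neighbours on chromosome 8 between 96696518 and 96704227 (mm9). Mt2 stood at 5.89, 60.9, 41.7 and 4.09 FPKM in normal HC and at 401, 1795, 691 and 851 FPKM after PH. Normal libraries 2 and 3 were well above 1 and 4, yet all were below every PH library, and the log2 change was 5.53 (SE 0.81, adjusted p = 0.00432). Mt1 stood at 26.3, 89.2, 74.5 and 28.4 FPKM in normal and at 424, 2701, 1091 and 1315 FPKM in PH libraries. The same normal libraries were high, and the log2 change was 4.55 (SE 0.58, adjusted p = 0.00214). Steap4, a metalloreductase that reduces iron and copper, stood at 13.3, 27.2, 26.3 and 13.8 FPKM in normal and at 73.8, 114, 70.2 and 66.9 FPKM in PH libraries, again with normal 2 and 3 the higher pair. Its log2 change was 1.997 (SE 0.30, adjusted p = 0.00455, or 0.114 with like libraries averaged). The Mt2 window, at chr8:94172368-94172667 on the plus strand of GRCm38.p6, is shown because it held 4 matches to the metal response core, 223, 128 and 50 bases before the start and 1 just after it, and C/EBP letters 12 bases before it.
Mt2: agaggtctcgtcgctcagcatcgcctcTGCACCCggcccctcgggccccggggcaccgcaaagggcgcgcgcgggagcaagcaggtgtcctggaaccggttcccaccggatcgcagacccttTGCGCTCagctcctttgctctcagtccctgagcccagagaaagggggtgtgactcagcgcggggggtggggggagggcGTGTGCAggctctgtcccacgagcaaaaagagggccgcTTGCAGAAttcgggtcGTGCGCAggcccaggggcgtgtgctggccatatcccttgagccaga

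Fibrinogen is a clotting protein built of 3 chains, and the genes of 2 of the 3 passed the test. Fgg, the gamma chain, stood at 2937, 3505, 4375 and 2936 FPKM in normal HC and at 6443, 11715, 8091 and 7656 FPKM after PH. The groups did not overlap, with library 2 the highest after PH, and the log2 change was 1.29 (SE 0.25, adjusted p = 0.0143). Fgb, the beta chain, stood at 3237, 4299, 4993 and 3205 FPKM in normal and at 7423, 14601, 8413 and 8243 FPKM in PH libraries, and rose by 1.27 (SE 0.27, adjusted p = 0.024). Fga, the alpha chain, stood at 1947, 2897, 3585 and 2111 FPKM in normal and at 3836, 10373, 6104 and 5768 FPKM in PH libraries. Its libraries were also separate and its log2 change was 1.26, but with an SE of 0.33 it missed the threshold (adjusted p = 0.0519, 95% interval 0.53 to 1.99). The Fgb to Fgg ratio was 1.09 to 1.23 in normal and 1.04 to 1.25 in PH HC. The Fgb call was lost under 7 of 17 alternatives and the Fgg call under 3. Fgl1, a hepatocyte-secreted fibrinogen-like protein, stood at 166, 248.6, 288 and 170 FPKM in normal and at 3489, 3915, 2424 and 2426 FPKM in PH libraries. It rose more than the chains, by 3.81 (SE 0.27, adjusted p = 5.56e-05). The Fgb window, at chr3:83049814-83050113 on the minus strand of GRCm38.p6, is shown as one of 3 member windows (with Fga and Steap4) that held both STAT and C/EBP letters, here 162 and 80 bases before the start.
Fgb: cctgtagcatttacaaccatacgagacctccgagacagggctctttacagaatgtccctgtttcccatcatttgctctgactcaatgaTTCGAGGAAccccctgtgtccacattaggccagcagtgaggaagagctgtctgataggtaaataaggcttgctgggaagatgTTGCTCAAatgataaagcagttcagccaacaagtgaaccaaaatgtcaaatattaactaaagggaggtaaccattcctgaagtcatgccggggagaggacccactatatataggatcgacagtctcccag

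Among protease inhibitors, the Serpina3 genes of the chromosome 12 cluster were unequal. Serpina3n, the mouse gene most often set beside human alpha-1-antichymotrypsin, stood at 164, 221, 208 and 170 FPKM in normal HC and at 1882, 3214, 3888 and 4054 FPKM after PH. All PH libraries were far higher, and the log2 change was 4.04 (SE 0.27, adjusted p = 4.72e-05). Serpina3m stood at 116, 106, 99.6 and 112 FPKM in normal and at 815, 986, 955 and 869 FPKM in PH libraries, a tight pair of groups with a log2 change of 3.05 (SE 0.18). Serpina3k, by far the most abundant of the family, stood at 14049, 10464, 9171 and 13978 FPKM in normal and at 17214, 14888, 17534 and 15727 FPKM in PH libraries. Its PH libraries lay just above the normal ones, but the log2 change of 0.48 did not pass (adjusted p = 0.229, 95% interval 0.00 to 0.95). Serpina3g, the member known from leukocytes, was at or below 1.68 FPKM in every HC library and was not tested there. Inter-alpha-trypsin inhibitor heavy chains bind hyaluronan and stabilise matrix. Itih3 stood at 383, 519, 531 and 400 FPKM in normal and at 1089, 1583, 2137 and 2082 FPKM in PH libraries, all higher, with a log2 change of 1.87 (SE 0.26, adjusted p = 0.00335, or 0.164 with like libraries averaged). Itih4 stood at 702.4, 647, 660 and 769 FPKM in normal and at 658, 2883, 4047 and 3709 FPKM in PH libraries. PH library 1 lay among the normal values, and the log2 change of 1.74 did not pass (SE 0.51, adjusted p = 0.0781); without that library it was 2.34 and passed. Ambp, the precursor of the bikunin light chain, was at 2519 to 3348 FPKM in normal and 2200 to 3669 FPKM in PH HC, with a log2 change of 0.09 (95% interval -0.41 to 0.59).

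Of the 3 genes for proteins that recognise microbial or damaged surfaces, and Lrg1 beside them, 1 of 4 rose. Apcs, serum amyloid P, the main pentraxin of the mouse response, stood at 151, 106, 80.3 and 133 FPKM in normal HC and at 999.7, 2196, 2043 and 1871 FPKM after PH. All PH libraries were higher, library 1 the least, and the log2 change was 3.88 (SE 0.31, adjusted p = 0.000142). Crp, the related pentraxin that leads the human response, stood at 389, 377, 335 and 339 FPKM in normal and at 620.2, 594, 498 and 388 FPKM in PH libraries. The groups overlapped by 1 library, and its change of 0.52 did not pass (adjusted p = 0.184, 95% interval 0.05 to 0.99 before adjustment). Lrg1, a leucine-rich glycoprotein that acts on TGF-beta signalling in vessels, stood at 335, 258, 291 and 369 FPKM in normal and at 265, 1193, 1656 and 2240 FPKM in PH libraries. Lbp, which hands lipopolysaccharide to CD14, stood at 44.0, 44.9, 51.0 and 48.3 FPKM in normal and at 24.8, 87.7, 111 and 95.8 FPKM in PH libraries. For both, PH library 1 was among or below the normal libraries and the other 3 were above them. The log2 changes were 1.74 (adjusted p = 0.107) for Lrg1 and 0.56 (adjusted p = 0.482) for Lbp; without PH library 1 they were 2.40 and 1.04, and both passed.

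PH library 1 was the lowest of the 4 PH HC libraries for 21 of the 32 tested members and the highest for 3. The same count was not made over all symbols, so it is not read as particular to the members. Its endothelial score (mean log2(FPKM + 1) of 7 markers) was 1.64 against 0.26 to 0.72 in the other PH HC libraries, and its sinusoidal score 2.44 against 0.75 to 1.28. The Kupffer score was highest in PH library 2, at 3.66, against 1.41 in library 1 and 0.62 to 0.69 in the others. The part of these differences in the members' values was not tested.

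**Figure D3:**
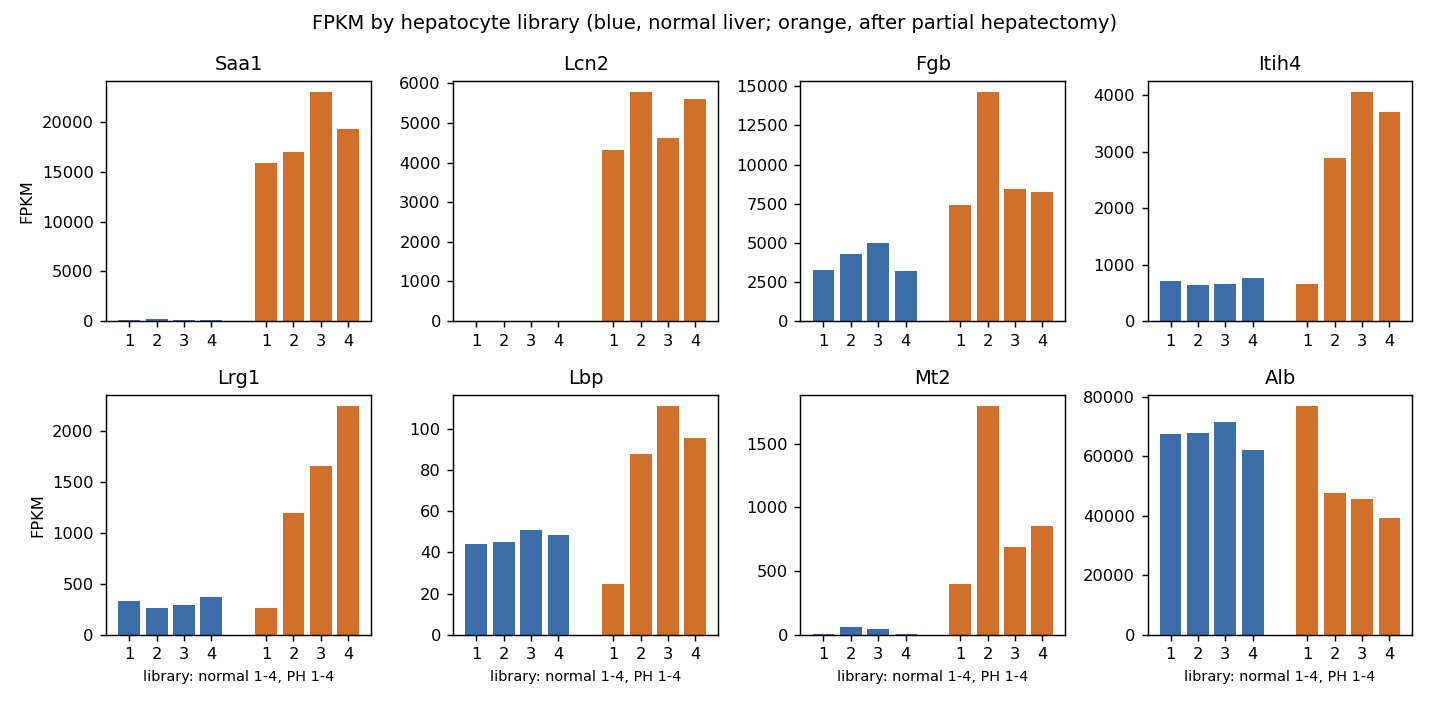
FPKM of Saa1, Lcn2, Fgb, Itih4, Lrg1, Lbp, Mt2 and Alb in each of the 4 normal and 4 PH hepatocyte libraries. PH library 1 is the lowest PH library for each of these genes except Alb, where it is the highest. Over all 32 tested members, shown here or not, it is the lowest for 21, a count not made over all symbols.

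Of the negative acute-phase genes, 1 of 5 fell. Ttr, transthyretin, which carries thyroid hormone and retinol-binding protein, stood at 8580, 6315, 7138 and 9212 FPKM in normal HC and at 4385, 4185, 4378 and 4218 FPKM after PH. The PH libraries were all lower and close together, and Ttr fell by 0.85 on the log2 scale (SE 0.20, adjusted p = 0.0328), a call lost under 10 of 17 alternatives. Alb, serum albumin, stood at 67672, 67986, 71527 and 61968 FPKM in normal and at 76908, 47574, 45486 and 39302 FPKM in PH libraries. PH library 1 was the highest of all 8 libraries and the other 3 PH libraries were below every normal one. The log2 change of -0.41 did not pass (adjusted p = 0.357, 95% interval -0.94 to 0.12), nor did it without that library (-0.61, adjusted p = 0.0507). Ahsg (fetuin A, an inhibitor of calcification), Apoa1 (the main protein of high-density lipoprotein) and Rbp4 (the retinol carrier) had log2 changes of 0.05, 0.12 and -0.17. Their 95% intervals were -0.47 to 0.57, -0.46 to 0.69 and -0.64 to 0.30, so a fall as large as that of Ttr lies outside each of them. Under quantile normalization Ahsg was at -0.56, Apoa1 at -0.35 and Rbp4 at -0.78, and Rbp4 then passed.

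The members together took 20.4% ± 1.43 (SD, n = 4) of the summed FPKM of a normal HC library and 33.4% ± 2.03 (SD, n = 4) after PH, ranges of 19.0 to 22.3% and 31.0 to 35.9% that did not overlap. Saa1 and Saa2 went from 0.0287% ± 0.00756 to 5.89% ± 0.871 (SD, n = 4 each). Albumin alone went from 9.80% ± 1.43 to 7.15% ± 2.30 (SD, n = 4 each), groups that overlapped. Hp and Hpx together went from 1.33% to 5.37%, and the 3 fibrinogen chains from 1.48% to 3.41%. By mean FPKM, 4 of the 10 most abundant symbols in normal HC were members, and 8 of 10 after PH. Among the 50 most abundant, members numbered 13 and 20. The Alb to Saa1 ratio was 360 to 530 in normal and 1.98 to 4.83 in PH libraries. Because FPKM are relative to the library, a larger share for some genes leaves a smaller one for the others.

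The genes that carry and answer the cytokine signal were read in HC as well. Of 30 genes for receptors, kinases, STAT and NF-kappaB proteins and their feedback inhibitors, 26 were tested, 2 rose and 1 fell, with a median change of -0.06. Over all symbols tested in HC, 1.78% were called higher and 4.41% lower. Il1r1, the interleukin-1 receptor, rose from 6.005 ± 1.99 to 22.7 ± 6.97 FPKM (SD, n = 4 each; log2 change 1.75, adjusted p = 0.00705). Cish, a feedback inhibitor of STAT5 signalling, rose from 2.37 ± 1.47 to 14.2 ± 9.80 FPKM (log2 change 2.02, adjusted p = 0.0433). Lifr, the receptor for leukaemia inhibitory factor, fell from 135 ± 51.7 to 21.2 ± 2.82 FPKM, by 2.54 on the log2 scale (adjusted p = 0.000866). Stat3 and Socs3, picked for their known place in the pathway after their values were seen, did not pass. Stat3 was at 24.1, 26.7, 26.7 and 22.7 FPKM in normal and 15.7, 53.3, 47.6 and 38.7 FPKM in PH libraries, library 1 again the lowest (log2 change 0.48, adjusted p = 0.459). Socs3 was at 4.25, 25.5, 23.6 and 4.38 FPKM in normal and 25.9, 40.5, 27.1 and 23.4 FPKM in PH libraries (log2 change 1.34, adjusted p = 0.189), with normal libraries 2 and 3 the higher pair as for Mt1 and Mt2.

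Of 22 transcription factors of hepatocyte and acute-phase genes, all tested, 0 rose by limma (1 at an unadjusted p below 0.05) and 2 fell, with a median change of -0.23. Cebpa, which maintains the quiescent hepatocyte programme, was at 223 ± 88.4 FPKM in normal and fell to 77.4 ± 28.6 FPKM (mean ± SD of 4 libraries), with a log2 change of -1.501 and an adjusted p of 0.0347. The list of 49 other secreted plasma proteins was compared in the same way: 47 were tested, 2 rose, 2 fell and the median change was -0.27. For both lists, the share over all symbols tested in HC was 1.78% higher and 4.41% lower. Apoa4, an apolipoprotein of the gut and liver, rose from 135 ± 59.3 to 2973 ± 1428 FPKM (log2 change 4.42, adjusted p = 0.00048). Serpina10, an inhibitor of factor Xa, rose from 185 ± 28.5 to 534 ± 115 FPKM (log2 change 1.51, adjusted p = 0.0045). Serpina6, the corticosteroid-binding globulin, fell from 101 ± 37.5 to 8.42 ± 4.10 FPKM, by 3.44 on the log2 scale (adjusted p = 0.000535). Serpinf1, pigment epithelium-derived factor, fell from 775 ± 116 to 318 ± 105 FPKM, by 1.34 (adjusted p = 0.0205).

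Outside hepatocytes, most abundant members were listed at exactly 0. The 16 members with a mean of 2000 FPKM or more over the 8 HC libraries were at 0 in a median of 46 of the 47 other libraries, and Serpina3k, Apoa1, Ahsg and Rbp4 were at 0 in all 47. The 17 members below that level were at 0 in a median of 23. Such zeros are given as listed and not as absence, since a table can hold 0 where no estimate was made. A member at 0 in every library of 1 group entered the test only through the other group. The direction of its call was thus set by that filter. Its fold change depends on the value added before the log, and is listed only among the results flagged for a closer look. HC was the population with the highest mean for 26 of 33 members in normal liver and for 28 after PH, a ranking that rests in part on listed zeros. Every HC library was above all other libraries of the same state for 25 members in normal liver and 26 after PH.

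**Figure D4:**
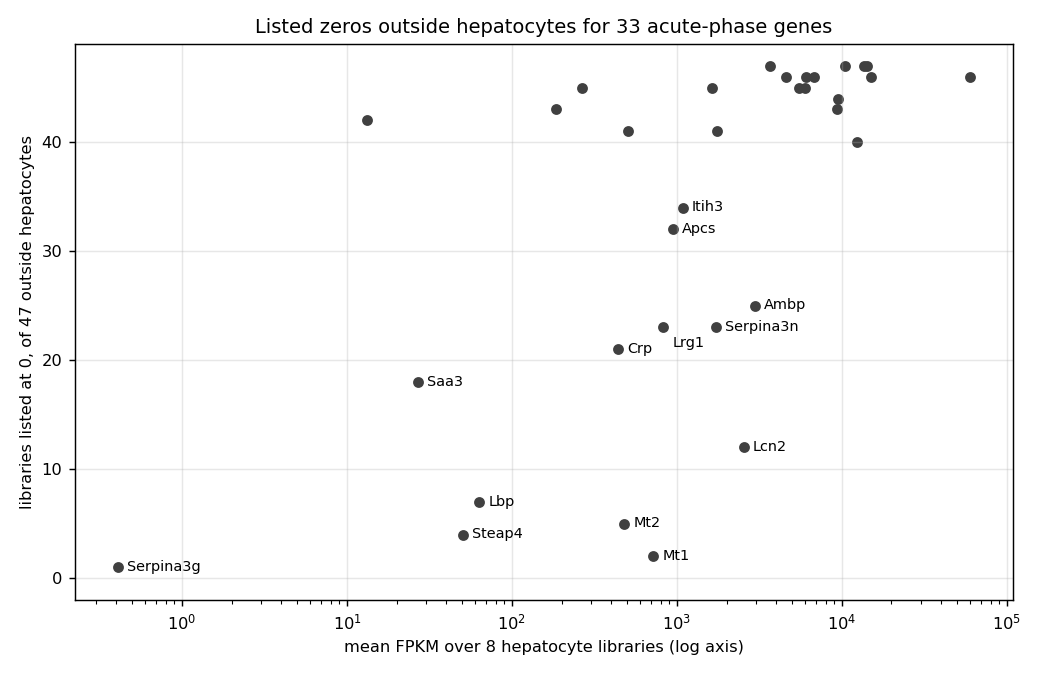
Number of the 47 non-hepatocyte libraries in which each member is listed at 0, against its level in hepatocytes (log axis). The 16 members at 2000 FPKM or more lie at a median of 46 libraries and the other 17 at a median of 23.

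In the 9 other populations, 86 member and population pairs could be tested. Of these, 11 were higher after PH and 10 lower. The lower pairs in BEC, cBEC and blood, and Mt2 in KC, were listed at 0 in every PH library of that population. The filter thus set their direction. Over all symbols in these populations, 6.1% of pairs were called higher and 7.9% lower. In LSEC 3 of 8 tested members rose and 0 fell, against 4.15% and 4.31% of all symbols called higher and lower there. Serpina3n stood at 1.54, 0 and 0.66 FPKM in the 3 normal LSEC libraries and at 109, 161, 94.9, 187 and 155 FPKM in the 5 PH libraries. No PH library was near a normal one, and the log2 change was 6.42 (SE 0.31, adjusted p = 1.62e-05). Only normal library 1 reached 1 FPKM, so Serpina3n entered the test through its PH libraries and the filter favoured a rise. Its adjusted p and its place among the 3 calls rest on that filter. Under the alternatives its log2 change was 3.78 to 8.10. Lrg1 stood at 38.7, 3.15 and 28.4 FPKM in normal and at 399, 536, 371, 338 and 632 FPKM in PH LSEC, all higher (log2 change 4.71, SE 0.65, adjusted p = 0.0047). Lbp stood at 68.2, 66.2 and 109 FPKM in normal and at 288, 303, 263, 328 and 350 FPKM in PH LSEC (log2 change 1.94, SE 0.20, adjusted p = 0.00125). After PH the lowest LSEC library for Lbp exceeded every PH library of the other populations, HC included. The summed FPKM of 12 hepatocyte markers in LSEC was 0 to 55.5 in normal and 4.79 to 15.3 in PH libraries. Of these 12 genes, 6 to 12 were listed at 0 in normal and 6 to 11 in PH LSEC libraries. As such zeros are not taken as absence, hepatocyte content cannot be read from this sum. The sinusoidal score went from 9.37 to 10.3 in normal to 7.92 to 9.68 in PH liver. The lipocalin and metallothionein genes, which rose in HC, did not pass in LSEC (Lcn2 log2 change 0.89, adjusted p = 0.521; Mt1 -0.73; Mt2 0.02).

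**Figure D5:**
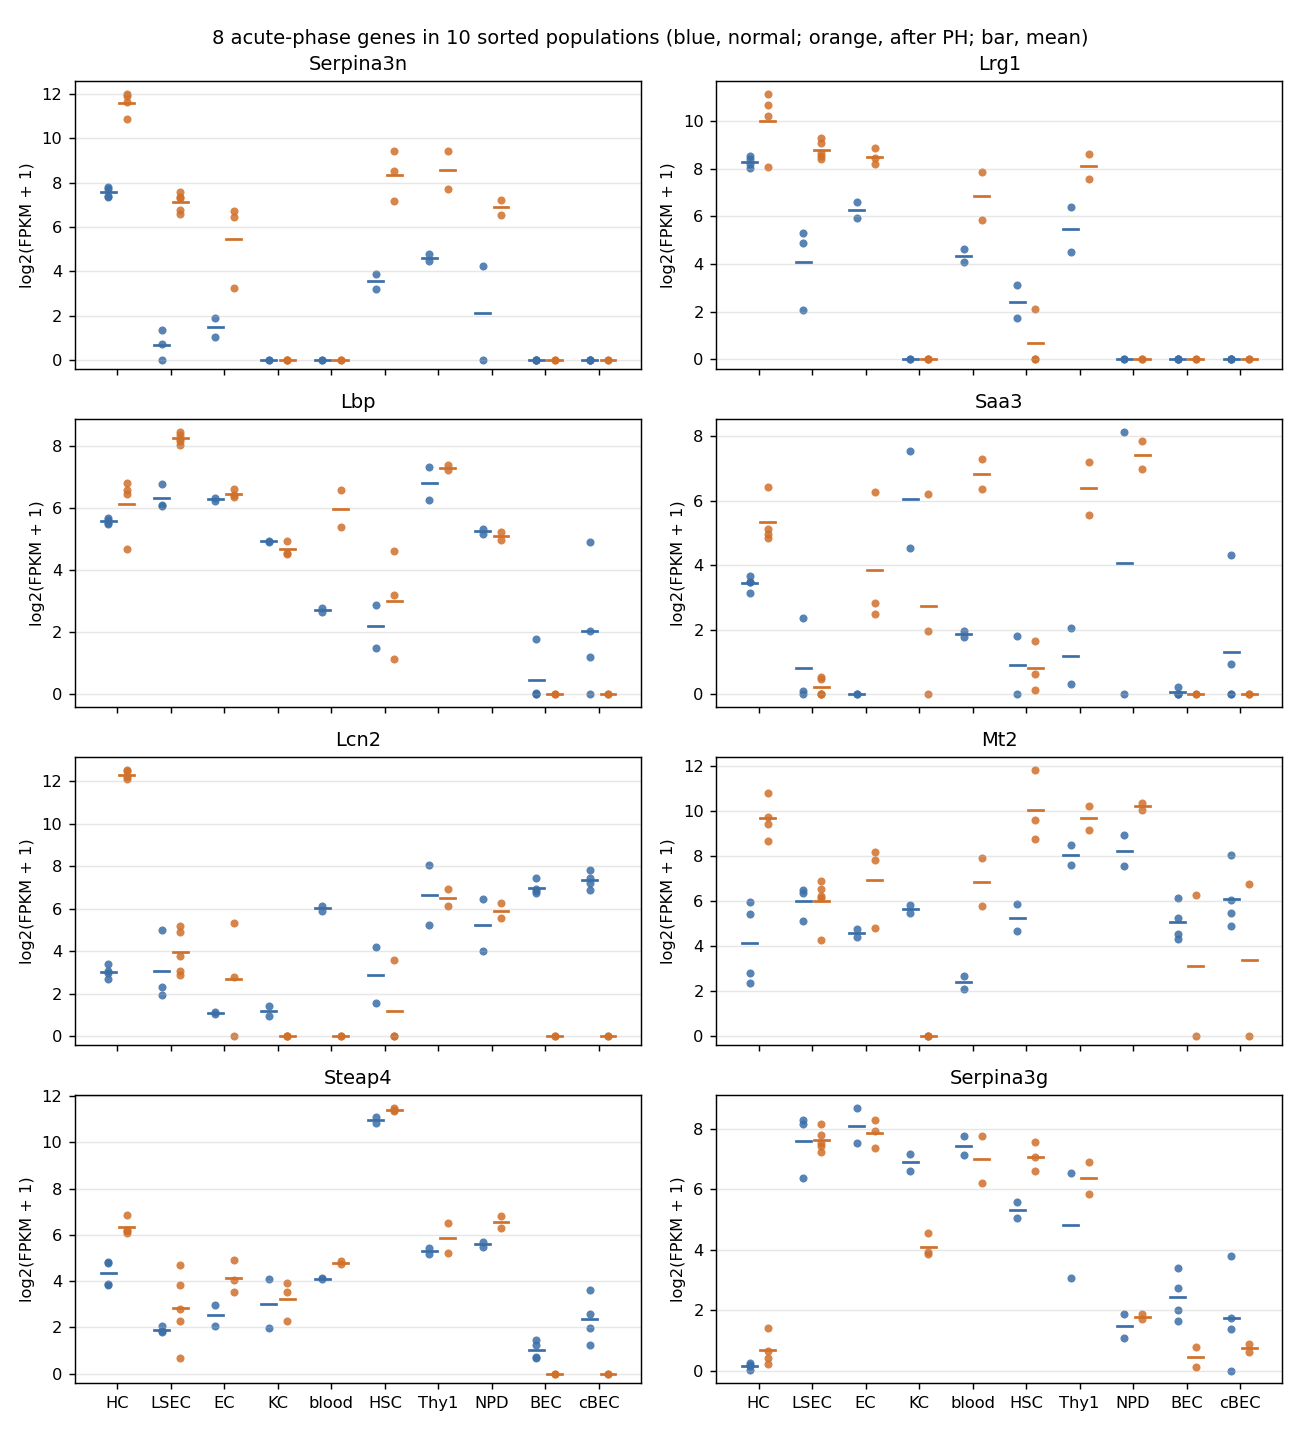
Log2(FPKM + 1) of Serpina3n, Lrg1, Lbp, Saa3, Lcn2, Mt2, Steap4 and Serpina3g by library in the 10 populations, normal beside PH. Serpina3n, Lrg1 and Lbp are higher in all 5 PH LSEC libraries than in the 3 normal ones, and Lcn2 is at 0 in the 4 PH duct libraries of cBEC and BEC.

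In the other endothelial and mesenchymal populations no member passed by limma, where 0.0249% of all symbols were called higher in EC, 0.00747% in Thy1 cells and 0.00853% in HSC. At an unadjusted p below 0.05, 4 of 10 tested members were higher in EC and 0 lower, against 6.61% and 4.14% of all symbols at that threshold. Among the 4 was Saa3, listed at 0 in both normal EC libraries and at 6.06, 4.61 and 76.95 FPKM after PH. It entered the test only through the PH libraries, so the filter set its direction. In Thy1 cells 5 of 11 were higher and 0 lower, against 7.86% and 10.2%, and in HSC 6 of 12 and 0, against 4.9% and 3.58%. Serpina3n was at 2.76 and 1.06 FPKM in normal EC and at 85.7, 8.52 and 106 FPKM after PH, at 26.2 and 21.2 in normal Thy1 cells and at 688 and 207 after PH. In HSC it was at 13.8 and 8.22 FPKM in normal and at 142, 687 and 364 FPKM in PH libraries (log2 change 4.82, adjusted p = 0.124). PH libraries were above normal ones in each of these 3 populations, with a wide spread among the PH libraries. Scores of other cell types moved in the same libraries: in HSC the Kupffer score was 2.84 to 6.59 in normal and 0.07 to 2.70 in PH, the sinusoidal score 4.15 to 6.82 and 1.77 to 3.30, and the endothelial score 3.45 to 5.87 and 0.36 to 2.17. In Thy1 cells the Kupffer score was 2.999 to 3.84 in normal and 1.52 to 1.72 in PH, and the endothelial score 7.14 to 7.16 and 7.52 to 8.58; in EC the duct score was 1.59 to 1.88 and 2.90 to 3.50. Their part in the members' values was not tested. Steap4 was higher in HSC than in any library of another population, in both states, at 2159.8 and 1809 FPKM in normal and 2822, 2599 and 2707 FPKM in PH libraries (log2 change 0.45, adjusted p = 0.654). Itih4 was at 24.7 and 47.6 FPKM in normal HSC and at 428, 156 and 209.6 FPKM after PH (log2 change 2.78, adjusted p = 0.222). Saa3 was at 0.23 and 3.09 FPKM in normal Thy1 cells and at 148 and 46.4 FPKM after PH (log2 change 5.22, adjusted p = 0.13). Normal Thy1 library 1 was below the filter of 1 FPKM, so Saa3 entered the test there through its PH libraries. The filter favoured a rise, and Saa3 is among the 5 Thy1 members counted as higher. Normal HSC library 2 alone held Saa1 at 54.0, Saa2 at 65.3, Hp at 60.6 and Hpx at 49.1 FPKM, which were listed at 0 in the other HSC libraries.

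In BEC, Lcn2 and Apcs were called lower after PH, and in cBEC Lcn2 was. Lcn2 stood at 121, 174, 114 and 105 FPKM in normal BEC and was listed at 0 in both PH BEC libraries (adjusted p = 5.07e-06). In cBEC it stood at 118, 173, 146 and 222 FPKM in normal and was again listed at 0 in both PH libraries (adjusted p = 1.66e-05). Apcs stood at 42.8, 73.0, 42.6 and 55.7 FPKM in normal BEC and was listed at 0 in both PH libraries (adjusted p = 9.44e-06); its lower values in cBEC and NPD did not pass (adjusted p = 0.062 and 0.0842). Lcn2 in NPD overlapped between the states. In BEC, 2 of 8 tested members were lower and 0 higher by limma. Of all symbols tested in BEC, 1.57% were called lower and 0.233% higher. In cBEC 1 of 9 was lower and 0 higher, against 0.0227% and 0.0454%. All these called members entered the test through the normal libraries only. The filter thus set their direction, and the counts and adjusted p-values here do not measure a fall. No member of either population was higher at an unadjusted p below 0.05, where 2.51% of all symbols were in BEC and 2.81% in cBEC. The Kupffer score moved with these changes, from 3.54 to 5.18 in normal BEC to 0.72 to 1.08 in PH BEC, and the sinusoidal score from 3.60 to 5.38 to 0.60 to 1.04. In cBEC the Kupffer score was 0.80 to 3.53 in normal and 0.61 to 0.68 in PH libraries; their part in the result was not tested. The duct score was 7.68 to 8.24 in normal and 8.08 to 8.28 in PH BEC. Crossing the same libraries, Ambp kept a high level, at 1294 to 2264 FPKM in normal and 1684 and 1601 FPKM in PH BEC. In NPD 2 of 11 tested members rose and 0 fell, against 9.65% and 5.51% of all symbols. These were Mt1, at 519 and 293 FPKM in normal and 1220 and 938 FPKM after PH (log2 change 1.45, adjusted p = 0.0483), and Steap4, at 50.6 and 44.0 FPKM in normal and 111 and 78.1 FPKM after PH (log2 change 0.96, adjusted p = 0.0482). The Mt1 call in NPD was lost under 5 of 12 alternatives and the Steap4 call under 8. The Kupffer score in NPD was 3.91 to 4.92 in normal and 1.37 to 1.64 in PH libraries, and the endothelial score 2.03 to 3.54 and 1.45 to 1.86; their part was not tested.

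In Kupffer cells 3 of 6 tested members fell and 0 rose by limma, where 20.1% and 16.7% of all symbols were called lower and higher. At an unadjusted p below 0.05, 0 members were higher, against 22.2% of all symbols. Mt1 stood at 213 and 267 FPKM in normal and at 118, 79.7 and 80.0 FPKM in PH libraries, so it fell by 1.38 on the log2 scale (SE 0.22, adjusted p = 0.0076), and without normal library 1 or 2 the call was lost. Mt2 stood at 43.4 and 54.8 FPKM in normal KC and was listed at 0 in all 3 PH libraries (adjusted p = 0.000519). Serpina3g stood at 95.5 and 143 FPKM in normal and at 13.4, 14.1 and 22.3 FPKM in PH libraries, and fell by 2.78 (SE 0.28, adjusted p = 0.00225). Mt1 thus had opposite signs in KC and HC, a difference that was not tested. Mt2 entered the test in KC only through the normal group, so the filter set its direction there. The sinusoidal score of these libraries went from 8.54 to 8.99 in normal to 5.16 to 6.05 in PH KC, and its part was not tested.

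In blood cells 6 of 11 tested members were higher and 4 lower, where 24.3% of all symbols were called higher and 39.7% lower. The 4 lower members were listed at 0 in both PH libraries, so the filter set their direction. The 2 states differed in cell content as well: the neutrophil score was 6.86 to 6.98 in normal and 3.47 to 3.996 in PH blood, and the Kupffer score 6.11 to 6.70 in normal and 10.0 to 10.8 in PH blood. The part of this in the members' changes was not tested. Lcn2 stood at 59.1 and 68.1 FPKM in normal blood and was listed at 0 in both PH libraries (adjusted p = 0.000766). Hp, also made in neutrophil precursors, stood at 74.7 and 62.3 FPKM and was then listed at 0 (adjusted p = 0.000766). Saa1 and Saa2, at 1.003 to 2.05 FPKM in normal blood, were listed at 0 after PH, and lay just above the filter of 1 FPKM. Saa3 stood at 2.37 and 2.91 FPKM in normal and at 82.1 and 157 FPKM in PH blood (log2 change 4.98, adjusted p = 0.000979). Lbp stood at 5.38 and 5.94 FPKM in normal and at 95.2 and 41.2 FPKM in PH blood (log2 change 3.26, adjusted p = 0.00319). Mt1, Mt2, Lrg1 and Steap4 were the others that rose, by 2.97, 4.46, 2.50 and 0.70 on the log2 scale. Without normal blood library 1 or 2, 5 of these 6 rises and the falls of Saa1 and Saa2 were lost, while Saa3, Lcn2 and Hp passed in both cases.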

How the data were processed

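RNA from FACS-sorted cells lysed in TRIzol was made into Illumina libraries, per the labels. The authors deposited FPKM, a unit given by the table's name only, with 1 column per library per the file headers. The submitters' processing notes name CASAVA 1.8.2, Bowtie 1.0.0 and the mm9 build with no role; the counting tool, the annotation and the handling of shared reads are not given in the sources used here. HC columns are rounded to 2 decimals (100% of nonzero values, against 0.0008% elsewhere). The table has 36141 rows for 24478 symbols; 6 members have several rows. All 55 sample columns were matched by title and 0 were left over. Read depth is unknown, so no counting interval is given.

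R 4.3.3 and limma 3.58.1 were used for all fits, of log2(FPKM + 1), with trended, robust variances, two-sided, within a population, over symbols with at least 1 FPKM in as many libraries as the smaller group has; low genes change more than this scale shows. They were tested on simulated data. Marker scores are the mean log2(FPKM + 1) of a list. The members and lists were chosen with earlier results of these data known. All members are accounted for; those that changed in HC are described by role, up to 6 changed genes per other list are named by size of change, and outside HC the called pairs whose libraries do not overlap. A gene that met this rule is not reported here. Alternatives were pseudocounts of 0.1 and 10, no filter, quantile and upper-quartile scaling, 1 fit of all 20 groups, a replicate block, summed rows per symbol, and leaving out each library. Averaging the like HC libraries was chosen after seeing the data. Same-numbered HC libraries did not consistently deviate together (mixed correlations of -0.32, 0.57, -0.67 and 0.44), so the block is not in the main fit and serves only as an alternative. Promoter windows were matched by symbol in RefSeq; Orm1, Hp, Serpina3m, Serpina3k, Lbp, Fgl1 and Ttr had none. Plots were made with matplotlib 3.10.9 in Python 3.11.15.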

Additional observations from a re-analysis of the deposited data

Results flagged for a closer look

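Within 92 groups of 4 or 5 values, 7 held a library far from the others, where chance gives about 4.6 (1 in 20). Lbp in PH HC library 1 was 24.82 FPKM against 87.7 to 111 in the other 3. In normal cBEC library 1, Crp was 77.54 FPKM against 227 to 260.5 in the others and Mt1 was 628.6 against 103 to 137. Normal cBEC library 4 alone held Alb, at 778.8 FPKM, and Ttr, at 79.17 FPKM, which were listed at 0 in the other 3. Crp in normal BEC library 2 was 246.3 FPKM against 205 to 209, and Mt1 in PH LSEC library 4 was 40.87 FPKM against 144 to 203.

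Several members lay above every normal library in PH hepatocytes and below every normal library in another PH population; these differences between populations were not tested. All log2 values below, except that of Mt1 in KC, come from PH groups listed at 0. Each such value depends on the 1 added before the log, and the filter set its sign. They are given as listed and measure neither the size nor the direction of a change. Lcn2 had log2 changes of -7.33 in cBEC, -6.99 in BEC and -6.01 in blood. Apcs had -5.73 in BEC, and -5.01 in cBEC and -2.54 in NPD, which did not pass the test. Hp had -6.11, Saa1 -1.24 and Saa2 -1.31 in blood. Mt1 had -1.38 and Mt2 -5.64 in KC, and Steap4 had -2.34 in cBEC and -1.02 in BEC, which did not pass (adjusted p = 0.337 and 0.163).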

How the results depend on the processing

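The count of members that rose in HC was 19 and lay between 16 and 22 under the other settings (16 to 22 with a library left out), and was 12 with like HC libraries averaged. The 12 that passed under all 17 alternatives were Saa1, Saa2, Lcn2, Orm1, Orm2, Hp, Apcs, Serpina3n, Serpina3m, Mt1, Mt2 and Fgl1, and all 20 called members kept their sign. The count that fell was 1 (Ttr), 2 under quantile normalization, 0 with 1 fit of all groups, 0 with the replicate block, 0 with like libraries averaged, and 0 to 1 with a library left out. With the replicate block, 19 members still rose in HC; over all symbols it gave 97 higher and 205 lower calls against 179 and 442, and in LSEC the Lrg1 and Lbp calls were lost (adjusted p = 0.119 and 0.0995). The numbers are not known to pair the samples. Signs turned for genes near 0: Saa4 was -0.032 with like libraries averaged and -0.035 to 0.20 with a library left out, Ahsg -0.56 under quantile normalization, -0.051 averaged and -0.051 to 0.23 with a library left out, Apoa1 -0.35 under quantile normalization and -0.027 to 0.26 with a library left out, Ambp -0.41 and Alb 0.00 under quantile normalization. Outside HC, rises numbered 11 (6 to 14 with a library left out, 6 without normal blood 1 or 2) and falls 10 (8 to 12), or 20 with 1 fit of all groups. Over all symbols in HC, quantile normalization gave 236 higher and 332 lower calls, upper-quartile scaling 209 and 344, averaged libraries 25 and 29, 1 fit of all groups 372 and 822, and libraries left out 93 to 199 and 209 to 488. Depth is unknown, and groups of 2 libraries limit the precision.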

Other observations

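Some members had a clear level outside hepatocytes, with no change that passed the test. Crp was at 206, 246, 205 and 209 FPKM in normal BEC and at 167 and 305 FPKM after PH, below every HC library. Ambp was at 1098 to 1986 FPKM in normal cBEC and at 1744 and 1285 FPKM after PH. Serpina3g, at or below 1.68 FPKM in hepatocytes, was highest in EC, at 295 ± 157 FPKM in normal (SD, n = 2) and 238 ± 73.3 FPKM after PH (SD, n = 3). In LSEC it was at 225 ± 125 FPKM (SD, n = 3) and 201 ± 53.8 FPKM (SD, n = 5), groups that overlap those of EC. Mt2 in HSC was at 57.1 and 24.2 FPKM in normal and at 428, 3550.2 and 759.8 FPKM in PH libraries, and its log2 change of 4.78 did not pass (adjusted p = 0.227).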
